A study of Mus musculus with 12 samples.

Results

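Pericytes and vascular smooth muscle cells, together the mural cells of brain vessels, were followed here through 10 marker genes. They are 6 genes listed as pericyte genes (Vtn, Notch3, Abcc9, Kcnj8, Pdgfrb and Rgs5) and 4 genes of the smooth muscle contractile apparatus (Acta2, Tagln, Myh11 and Myl9). Pericyte and smooth muscle gene are used here as names of these lists, and which cells the transcripts came from was not tested. The 10 genes were chosen by symbol, with earlier results of these data known, and all 10 were found among the 23183 symbols of the 12 libraries. RNA was sequenced from 2 brain regions, hippocampus and prefrontal cortex, of male mice of the inbred strain C57BL/6. The abdomen of 3 mice had received X-rays to injure the gut lastingly, with 13 Gy in the library names, and 3 mice were not irradiated. Brains were taken during a chronic phase whose time no source used here gives. Each mouse gave 1 library per region, so there were 4 groups of 3 libraries, all with 1 batch label. The labels name no age and no other agent, and they describe whole tissue, with no vessel isolation.

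Pericytes lie on the capillaries, inside the basement membrane they share with the endothelium, and are needed for the blood-brain barrier. Smooth muscle cells wrap the arteries and arterioles and set vessel width by contraction. Endothelial cells recruit both cell types through the growth factor PDGF-B, whose receptor is Pdgfrb, and through the Notch ligands, which bind Notch3. The contractile genes are textbook targets of serum response factor, which binds the CArG box.

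Promoters were read because 4 of the pericyte genes passed the test between the brain regions of control mice, all in the same direction, and no smooth muscle gene did. RefSeq (GRCm38.p6) promoters, which run from 250 bases before the start to 50 after it, matched 7 of the 10 genes. Tagln, Myh11 and Pdgfrb had no entry. The motifs sought on both strands were the CArG box, the muscle motif MCAT (CATTCC) and the site of the Notch partner RBPJ (GTGGGAA). For the CArG box the strict form CCWWWWWWGG was used, where W is A or T. No match overlapped another. The CArG box occurred in 1.63%, MCAT in 14.7% and the RBPJ site in 6.38% of 32851 promoters of the same length. Shown are the 250 bases before the start of the 4 genes with a match, 5′ to 3′ on the strand of the gene, with the match in capitals (MCAT in its reverse complement, GGAATG, in the first 3, and the CArG box in Myl9). The positions are chr11:78498870-78499119 on the plus strand for Vtn, chr6:142702275-142702524 on the minus strand for Abcc9, chr19:34255374-34255623 on the minus strand for Acta2 and chr2:156775214-156775463 on the plus strand for Myl9.
Vtn: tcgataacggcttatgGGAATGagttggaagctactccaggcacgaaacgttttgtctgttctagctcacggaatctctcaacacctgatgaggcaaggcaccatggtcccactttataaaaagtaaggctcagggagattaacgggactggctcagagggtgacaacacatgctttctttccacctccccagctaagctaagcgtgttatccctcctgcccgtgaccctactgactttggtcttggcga
Abcc9: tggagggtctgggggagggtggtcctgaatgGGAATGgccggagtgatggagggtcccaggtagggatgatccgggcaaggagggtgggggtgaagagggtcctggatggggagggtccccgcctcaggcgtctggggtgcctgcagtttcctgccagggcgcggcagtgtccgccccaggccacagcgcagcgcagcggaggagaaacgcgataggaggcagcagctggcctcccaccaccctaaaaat
Acta2: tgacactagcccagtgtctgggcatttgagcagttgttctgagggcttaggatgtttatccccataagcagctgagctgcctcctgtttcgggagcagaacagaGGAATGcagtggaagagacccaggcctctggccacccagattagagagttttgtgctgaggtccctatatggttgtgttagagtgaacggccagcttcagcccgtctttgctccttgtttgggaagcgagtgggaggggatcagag
Myl9: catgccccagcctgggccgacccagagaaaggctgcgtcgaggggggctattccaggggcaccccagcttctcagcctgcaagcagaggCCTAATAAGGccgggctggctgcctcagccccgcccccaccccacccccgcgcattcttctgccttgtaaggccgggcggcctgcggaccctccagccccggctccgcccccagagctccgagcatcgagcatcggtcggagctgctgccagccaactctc

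With the start counted as 0, the CArG box of Myl9 lay at -161 to -152. It was the only match to the strict CArG form among the 7 promoters. Near matches were not sought. Acta2 holds ccctatatgg and ccttgtttgg in the bases shown, with a C or a G inside the stretch of A and T. The MCAT match lay at -234 to -229 in Vtn, -219 to -214 in Abcc9 and -146 to -141 in Acta2. Vtn held a further MCAT match after its start, at 40 to 45. No motif matched in the promoters of Notch3, Kcnj8 and Rgs5, which says only that these letters are not in this window. The RBPJ site was found in none of the 7.

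Values are FPKM, counted fragments scaled by transcript length and by library size, so levels can be set side by side between genes. The sum of all FPKM ran from 381417 to 435534 per library, estimated depth from about 15.4 to 18.7 M (mega) fragments, and 12640 to 12967 genes reached 1 FPKM. The dissections carried the markers of their regions. The 4 hippocampal markers C1ql2, Fibcd1, Spink8 and Prox1 summed to 90.2 to 120.3 FPKM in hippocampus and 5.74 to 7.92 in prefrontal cortex. The 3 cortical markers Tbr1, Lamp5 and Foxp2 summed to 29.3 to 39.4 and 123.7 to 150.1 FPKM. One library stood apart: the 8 choroid plexus genes, markers of the epithelium that makes cerebrospinal fluid, summed to 65.2 FPKM in the hippocampus of irradiated mouse 2 and to between 3132 and 5860 in the other 5 hippocampal libraries. The hippocampal differences of the tested mural genes are given below also without it.

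In control hippocampus the mural genes spanned a wide range of levels. Vtn, which encodes the matrix protein vitronectin, stood highest at 26.5 ± 4.38 FPKM (SD, n = 3 mice), followed by Rgs5, a G-protein signalling regulator that marks pericytes, at 14.6 ± 3.40 FPKM. Myl9, the regulatory light chain of smooth muscle myosin, had 7.12 ± 1.45 FPKM and the receptor Pdgfrb 2.97 ± 0.10 FPKM. The replicate ranges of neighbouring genes in this order did not overlap, and that of Pdgfrb lay above all genes that follow.

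Below Pdgfrb, Tagln, the actin-binding protein transgelin, had 2.05 ± 0.576 FPKM and Acta2, smooth muscle alpha-actin, 1.95 ± 0.407 FPKM. Notch3 followed at 1.13 ± 0.122, Kcnj8 at 1.10 ± 0.274, Abcc9 at 0.897 ± 0.0899 and Myh11, the smooth muscle myosin heavy chain, at 0.607 ± 0.293 FPKM. Neighbours in this lower part of the order overlapped in their replicates, except that every value of Acta2 was above every value of Notch3. Kcnj8 and Abcc9 encode the pore and the sulfonylurea receptor subunit of the ATP-sensitive potassium channel of pericytes, and they are neighbours on chromosome 6 on the same strand. Given the estimated depth, Vtn and Rgs5 rested on about 719 to 1458 fragments per library, and Acta2, Tagln, Myh11 and Kcnj8 on as few as 37 to 47.

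**Figure D1:**
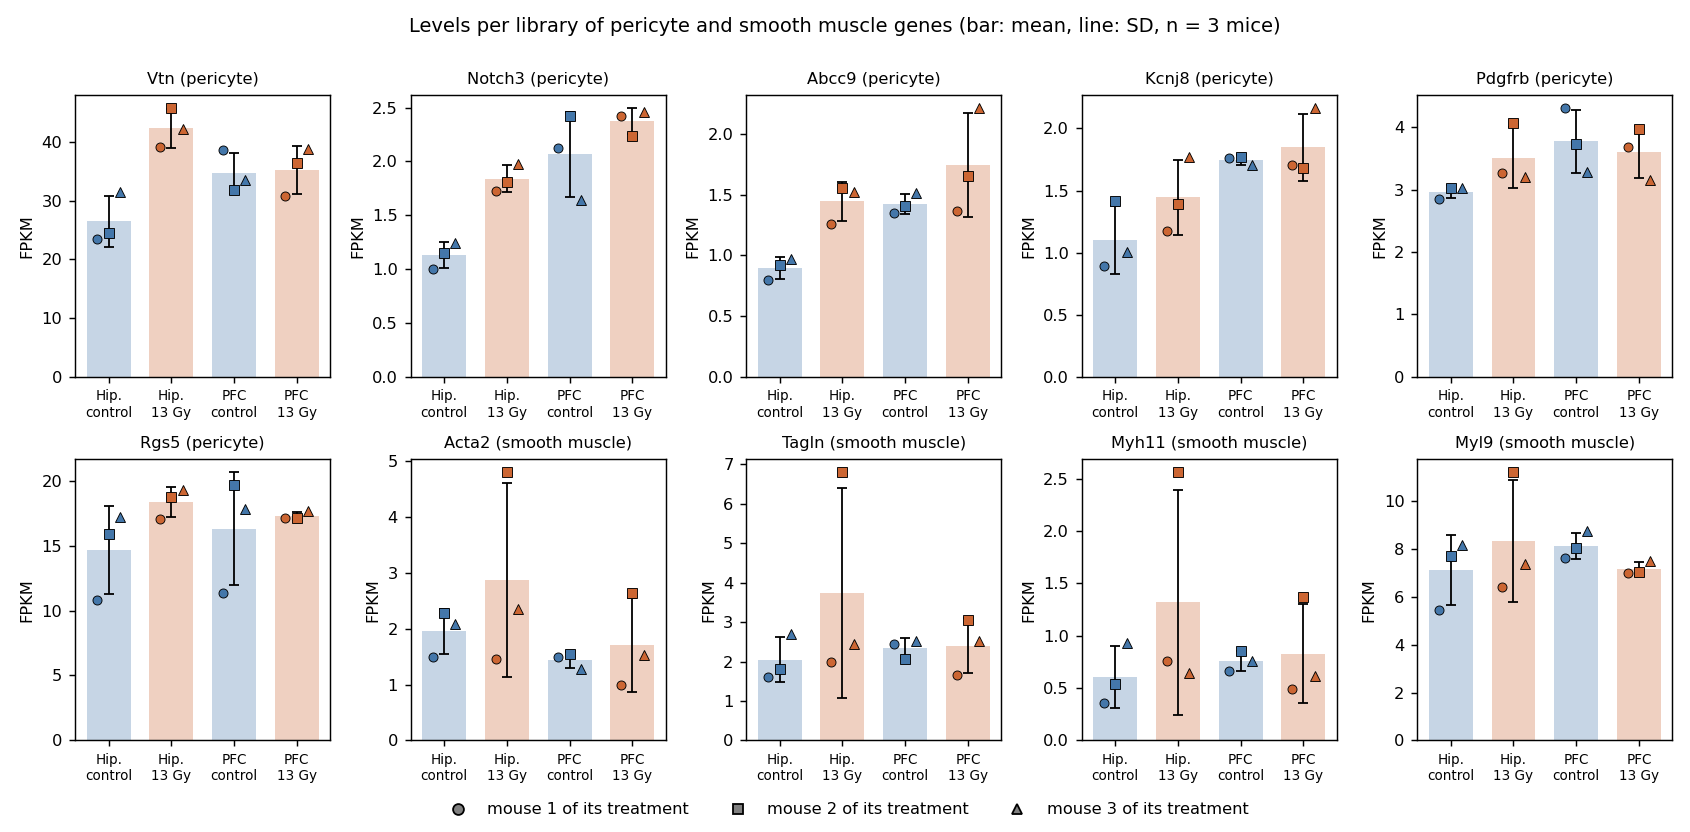
FPKM of the 10 genes in the 12 libraries, 1 panel per gene, with a point per mouse. Bars give the mean of each group of 3 mice and lines the SD. Vtn, Notch3 and Abcc9 in hippocampus lie higher in all 3 irradiated mice than in any control, while Acta2, Tagln and Myh11 have 1 irradiated mouse far above the others.

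The first comparison asked whether mural transcripts differed in the hippocampus of irradiated mice. No gene passed the test at an adjusted p of 0.05 (limma on log2(FPKM + 1), 0 of 12947 genes, 0%), so none of the mural genes did. All 9 tested mural genes had positive differences, against 47% of all genes tested. Their median log2 difference was 0.33, and that of all genes tested was -0.01. Of the 9, 3 had an unadjusted p under 0.05, all higher, against 4.7% of all genes higher and 10.5% in either direction. Because the mural genes were chosen with earlier results of these data known, these shares are only a description. Myh11 was not tested because its mean was under 1 FPKM.

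Vtn stood at 39.2, 45.8 and 42.3 FPKM in the 3 irradiated hippocampi and at 23.5, 24.5 and 31.5 FPKM in the 3 controls. The 2 groups did not overlap, as in 7.41% of all genes tested in the higher direction. The ratio of the means was 1.60 and the log2 difference 0.67 ± 0.11 (SE), with an unadjusted p of 0.000323 and an adjusted p of 0.322 (limma). Its adjusted p ran from 0.08 to 0.922 when 1 library was left out, and the log2 difference from 0.59 to 0.80.

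Notch3, the receptor through which mural cells receive Notch signals, had 1.73, 1.81 and 1.98 FPKM in irradiated and 1.01, 1.15 and 1.25 FPKM in control hippocampus. Its groups did not overlap, with a ratio of means of 1.62 and a log2 difference of 0.41 ± 0.10 (limma unadjusted p = 0.00287, adjusted p = 0.435). Abcc9 had 1.26, 1.55 and 1.53 FPKM in irradiated and 0.797, 0.923 and 0.971 FPKM in control hippocampus. Every irradiated value was again above every control value, at a ratio of 1.61 and a log2 difference of 0.37 ± 0.10 (limma unadjusted p = 0.0077, adjusted p = 0.475). Without irradiated mouse 2 the log2 differences of Vtn, Notch3 and Abcc9 were 0.61, 0.42 and 0.33.

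The other pericyte genes were closer between the groups. Pdgfrb had 3.26, 4.07 and 3.21 FPKM against 2.85, 3.03 and 3.03 FPKM in controls. Its groups did not overlap, but the gap was narrow and the log2 difference was 0.18 ± 0.10 (limma adjusted p = 0.521), and 0.09 without irradiated mouse 2. Kcnj8 had 1.17, 1.39 and 1.77 FPKM against 0.895, 1.41 and 1.00 FPKM, and Rgs5 had 17.1, 18.7 and 19.3 FPKM against 10.8, 15.9 and 17.2 FPKM. Both overlapped between the groups, by 1 control value each, with log2 differences of 0.22 ± 0.14 for Kcnj8 and 0.33 ± 0.15 for Rgs5 (limma adjusted p = 0.554 and 0.484), and 0.23 and 0.32 without irradiated mouse 2.

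None of the smooth muscle genes passed in hippocampus, and their differences rested on irradiated mouse 2. Acta2 had 1.46, 4.80 and 2.36 FPKM in irradiated mice 1, 2 and 3 and 1.5, 2.28 and 2.08 FPKM in controls. The value of irradiated mouse 1 lay below all 3 controls and that of irradiated mouse 2 was the highest of all 12 libraries. The log2 difference was 0.31 ± 0.28 (limma adjusted p = 0.667), and -0.03 ± 0.17 without irradiated mouse 2. Tagln had 1.98, 6.80 and 2.45 FPKM against 1.62, 1.82 and 2.70 FPKM. Only irradiated mouse 2 was above the highest control, and the log2 difference of 0.52 ± 0.33 (limma adjusted p = 0.561) was 0.09 ± 0.16 without it.

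Myl9 had 6.39, 11.2 and 7.37 FPKM in irradiated hippocampus against 5.47, 7.70 and 8.18 FPKM in control. Irradiated mice 1 and 3 lay within the control range, and irradiated mouse 2 above it. The log2 difference was 0.18 ± 0.20 (limma adjusted p = 0.725), and -0.03 ± 0.15 without irradiated mouse 2. Myh11 had 0.757, 2.56 and 0.643 FPKM against 0.356, 0.537 and 0.929 FPKM, again with only irradiated mouse 2 above the controls. In a fit without the filter on low values its log2 difference was 0.45 ± 0.30 (limma adjusted p = 0.65).

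In prefrontal cortex, where the same comparison was made, the mural genes lay close to the controls. None passed the test, and limma called 1 of 12729 genes (0.00786%), the small nucleolar RNA gene Snora81, named here after its value was seen. Of the 9 tested mural genes 7 had positive differences, against 51.2% of all genes, but Tagln turned negative with a pseudocount of 0.1 and Pdgfrb positive with equal library totals. The median log2 difference was 0.05, and 0 of the 9 had an unadjusted p under 0.05, against 7.23% of all genes.

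Vtn had 30.8, 36.4 and 38.8 FPKM in irradiated and 38.7, 31.9 and 33.6 FPKM in control prefrontal cortex, with a log2 difference of 0.02 ± 0.10 (limma adjusted p = 0.973). Notch3 had 2.42, 2.24 and 2.46 FPKM against 2.13, 2.42 and 1.65 FPKM, a log2 difference of 0.15 ± 0.12 (limma adjusted p = 0.834). Abcc9 had 1.36, 1.66 and 2.21 FPKM against 1.35, 1.41 and 1.52 FPKM, a log2 difference of 0.17 ± 0.13 (limma adjusted p = 0.83). The irradiated and control values of these 3 genes overlapped. Kcnj8, Pdgfrb and Rgs5 overlapped too, with log2 differences of 0.05 ± 0.10, -0.05 ± 0.11 and 0.11 ± 0.16.

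Acta2 had 0.989, 2.64 and 1.53 FPKM in irradiated and 1.5, 1.56 and 1.28 FPKM in control prefrontal cortex, and Tagln 1.66, 3.05 and 2.51 FPKM against 2.45, 2.07 and 2.52 FPKM. Myh11 had 0.496, 1.37 and 0.617 FPKM against 0.666, 0.856 and 0.760 FPKM. In these 3 genes irradiated mouse 2 was the highest of the 6 prefrontal libraries, as it was in hippocampus, and irradiated mouse 1 was the lowest. Their log2 differences were 0.11 ± 0.19, 0.01 ± 0.15 and, without the filter, 0.02 ± 0.17. Myl9 had 6.98, 7.02 and 7.5 FPKM against 7.64, 8.02 and 8.73 FPKM. All 3 irradiated values were below the controls, as in 7.44% of genes in the lower direction, with a log2 difference of -0.16 ± 0.08 (limma unadjusted p = 0.0799, adjusted p = 0.735).

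**Figure D2:**
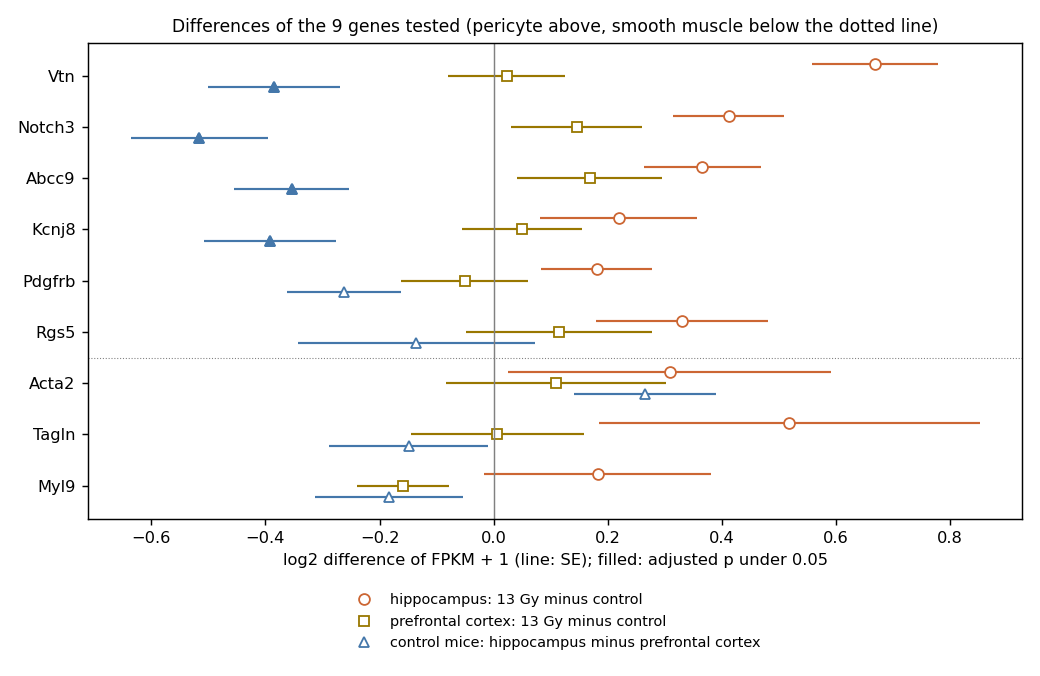
Log2 difference of FPKM + 1 between irradiated and control mice for the tested genes, with the SE, in hippocampus and in prefrontal cortex. A further series gives control hippocampus minus control prefrontal cortex. Filled symbols mark an adjusted p under 0.05 (limma) and occur only in that series. Of the irradiation differences, Vtn lies highest in hippocampus at 0.67, while in prefrontal cortex all genes lie between -0.16 and 0.17.

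The difference between the effects in the 2 regions was tested over all 12 libraries. Limma called 0 of 12894 genes (0%), with 422 genes (3.27%) at an unadjusted p under 0.05. The difference was positive for all 9 tested mural genes against 48% of all genes, and without hippocampus irradiated mouse 2 that of Acta2 turned negative, at -0.14 on the log2 scale, as it did without prefrontal cortex irradiated mouse 1, at -0.0036. Vtn had a difference of 0.65 ± 0.16 (limma unadjusted p = 0.00179, adjusted p = 1), or 0.59 ± 0.17 without the hippocampus of irradiated mouse 2. It was the only mural gene with an unadjusted p under 0.05 in this fit, which did not pair the 2 regions of a mouse. With the mouse as replicate block, 2 mural genes and 681 of 12894 genes had such a p (limma). Within each irradiated mouse Vtn was higher in hippocampus than in prefrontal cortex, by 0.34, 0.32 and 0.12 on the log2 scale, and within each control mouse it was lower, at -0.70, -0.37 and -0.09. No other mural gene had opposite signs in all mice of the 2 groups. Notch3, for example, was lower in hippocampus in all 6 mice, at -0.33, -0.20 and -0.22 in irradiated and -0.64, -0.67 and -0.24 in control mice.

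The mean of both regions of each mouse was compared too, which leaves 1 value per animal. Limma called 1 of 12894 genes (0.00776%), the RNA component gene Rmrp, which was lower and is named here after its value was seen. No mural gene passed. Vtn, Notch3 and Abcc9 had log2 differences of 0.35 ± 0.08, 0.28 ± 0.08 and 0.27 ± 0.10 (limma unadjusted p = 0.00184, 0.00639 and 0.0224, adjusted p = 0.369, 0.384 and 0.444). Of all genes, 4.04% had such an unadjusted p in the higher direction, under 0.05. In these 3 genes the mice did not overlap, as in 8.28% of all genes in the higher direction. The other 6 had differences of 0.01 to 0.26, and their adjusted p ran from 0.608 to 0.978. Without irradiated mouse 2 those of Vtn, Notch3 and Abcc9 were 0.31, 0.30 and 0.26, while those of Pdgfrb (-0.0071), Acta2 (-0.077), Tagln (-0.019) and Myl9 (-0.088) turned negative.

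Control hippocampus and control prefrontal cortex were then compared, which uses the same control hippocampi as the first comparison. Here 4 pericyte genes were lower in hippocampus by the test: Notch3, Abcc9, Kcnj8 and Vtn. No smooth muscle gene passed. In the background limma called 3922 of 12923 genes (30.3%), 14.6% lower and 15.7% higher. Of the 6 pericyte genes, 5 did not overlap between the regions and were lower in hippocampus, against 22% of all genes, and the median log2 difference was -0.37. For the 3 smooth muscle genes tested it was -0.15.

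Notch3 averaged 1.13 ± 0.122 FPKM in the hippocampal and 2.07 ± 0.391 FPKM in the prefrontal controls (SD, n = 3 each), a log2 difference of -0.52 ± 0.12 (limma adjusted p = 0.0103). Abcc9 had 0.897 ± 0.0899 against 1.42 ± 0.0822 FPKM and a difference of -0.35 ± 0.10 (limma adjusted p = 0.0252), and its channel partner Kcnj8 1.10 ± 0.274 against 1.75 ± 0.0381 FPKM and -0.39 ± 0.12 (limma adjusted p = 0.0308). Vtn had 26.5 ± 4.38 against 34.7 ± 3.52 FPKM and -0.39 ± 0.12 (limma adjusted p = 0.0321). In all 4 genes, every hippocampal control library was below every prefrontal one. Pdgfrb did not overlap either, at 2.97 ± 0.10 against 3.78 ± 0.507 FPKM, but did not pass (log2 difference -0.26 ± 0.10, limma adjusted p = 0.0793).

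Of the 4 called genes, only Notch3 passed in all 6 fits that left out 1 library, with adjusted p from 0.00577 to 0.0411 (limma). Without hippocampus control 1, Vtn (adjusted p = 0.116), Abcc9 (0.0838) and Kcnj8 (0.106) did not pass and Acta2 did, at a log2 difference of 0.38 (adjusted p = 0.0474). Without hippocampus control 2, Vtn (0.116) and Abcc9 (0.0656) did not pass, and without hippocampus control 3 Kcnj8 (0.0862) did not. Without prefrontal cortex control 1, Vtn (0.0886) and Kcnj8 (0.0636) did not pass, and without control 2, Abcc9 (0.0641) and Kcnj8 (0.0794) did not. Without prefrontal cortex control 3, Vtn (0.0591), Abcc9 (0.0782) and Kcnj8 (0.0652) did not. The fewer libraries also lowered the count over all genes, to between 2920 and 3843.

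Rgs5, which had log2 difference -0.14 ± 0.21, and the smooth muscle genes Acta2 (0.26 ± 0.12), Tagln (-0.15 ± 0.14) and Myl9 (-0.18 ± 0.13) did not pass between the control regions (limma adjusted p = 0.674, 0.144, 0.468 and 0.329). In irradiated mice the ratio of the hippocampal to the prefrontal mean was 1.2 for Vtn, 0.775 for Notch3, 0.829 for Abcc9 and 0.782 for Kcnj8. In control mice the same ratios were 0.763, 0.549, 0.63 and 0.632. These ratios were not tested in irradiated mice.

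Averaged over their genes on the log2(FPKM + 1) scale, the pericyte genes had 2.56, 2.72 and 2.71 in irradiated and 2.15, 2.35 and 2.40 in control hippocampus. The groups did not overlap, and their means differed by 0.36, with an SD within groups of 0.11. The smooth muscle genes had 1.64, 2.74 and 1.83 against 1.46, 1.74 and 1.91. Here the groups overlapped. The difference of 0.37 was within the SD of 0.44, and came to 0.03 without irradiated mouse 2. In prefrontal cortex the differences were 0.08 (SD 0.06) for the pericyte genes and -0.005 (SD 0.19) for the smooth muscle genes.

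Set against each other in the same library, the pericyte mean exceeded the smooth muscle mean by 0.69, 0.61 and 0.48 in control hippocampus and by 0.88, 0.94 and 0.83 in control prefrontal cortex. In irradiated hippocampus the excess was 0.92, -0.02 and 0.88, and in irradiated prefrontal cortex 1.15, 0.68 and 1.06. In both regions irradiated mouse 2 had the smallest excess and irradiated mouse 1 the largest. In a bulk library, fewer cells of a type and less RNA per cell cannot be told apart.

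**Figure D3:**
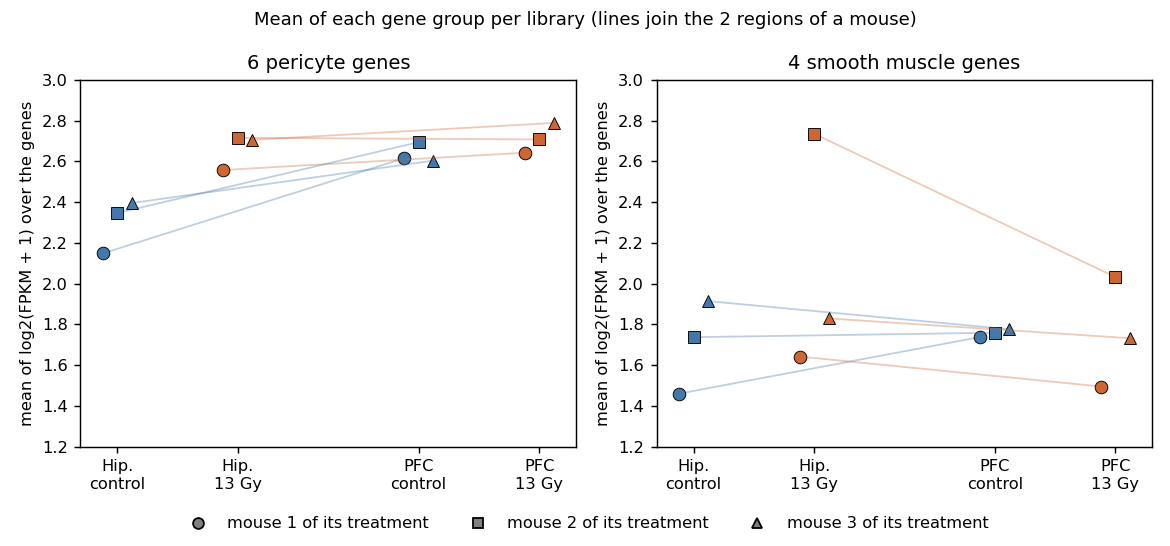
Mean log2(FPKM + 1) of the 6 pericyte genes and of the 4 smooth muscle genes in each library, by region and treatment, with a point per mouse. The pericyte means of control hippocampus (2.15 to 2.40) lie below all other libraries, and the smooth muscle mean of irradiated mouse 2 is the highest in each region (2.74 and 2.03).

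Across the 12 libraries the smooth muscle genes had a higher median correlation than the pericyte genes. Acta2, Tagln and Myl9 all had their highest value in the hippocampus of irradiated mouse 2, at 4.80, 6.80 and 11.2 FPKM. Correlations of genes, here and below, were not computed without that library, so its part in them was not tested. Pearson's r, given as a description over libraries that share regions and mice, had a median of 0.81 over the 3 pairs of tested smooth muscle genes (0.60 to 0.84). Over the 15 pericyte pairs the median was 0.50 (0.05 to 0.83), and over the 18 pairs of 1 gene from each list it was 0.31 (-0.14 to 0.66). The genes whose profile was most like the pericyte mean over the 12 libraries were the endothelial adhesion molecule Pecam1 (r = 0.98), the VEGF receptor Flt1 (0.95), the endothelial receptor Adgrl4 (0.93), the neuronal membrane protein Lingo2 (0.93) and the angiopoietin receptor Tek (0.93). The profiles most like the mean of Acta2, Tagln and Myl9 were those of Reck, an inhibitor of matrix metalloproteinases (0.88), Zmat4 (0.82), Cnot4 (0.81), Cbll1 (0.81) and the copper protein Cp (0.79).

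Other pericyte and contractile genes were taken from lists, and which cells of the whole tissue they came from was not tested. Of 14 further pericyte genes 9 were tested in hippocampus, and all 9 had positive differences with a median of 0.13 and 0 passing the test. Cd248, the pericyte and fibroblast glycoprotein endosialin, had 1.42, 1.23 and 1.51 FPKM in irradiated and 0.666, 0.848 and 0.931 FPKM in control hippocampus. Its groups did not overlap, as in 7.41% of all genes in the higher direction. The log2 difference was 0.40 ± 0.11 (limma unadjusted p = 0.00649, adjusted p = 0.475). In prefrontal cortex the groups of Cd248 also did not overlap, with the irradiated values the lower ones, at 0.951, 0.838 and 1.01 against 1.43, 1.44 and 1.06 FPKM. Of all genes there, 7.44% were lower without overlap. Atp13a5, a transport ATPase of brain pericytes, had 1.85, 2.39 and 1.69 FPKM against 0.980, 1.30 and 1.57 FPKM in hippocampus (log2 difference 0.38 ± 0.14, limma adjusted p = 0.475). Of 11 tested in prefrontal cortex, 6 were positive and 5 negative, with a median of 0.

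Between the control regions 2 of these 9 genes passed, both lower in hippocampus, where 30.3% of all genes passed and 14.6% were lower. Ndufa4l2, a mitochondrial protein abundant in pericytes, had 1.31 ± 0.269 FPKM in hippocampal and 2.37 ± 0.270 FPKM in prefrontal libraries (log2 difference -0.55, limma adjusted p = 0.00724). Atp13a5 had 1.28 ± 0.296 against 2.05 ± 0.232 FPKM (log2 difference -0.42, limma adjusted p = 0.0289).

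Of 16 further contractile genes 9 were tested. In control hippocampus Tpm1 (91.4 FPKM), Ppp1r14a (49.3) and Srf (17.1) stood far above the smooth muscle genes described. Across the libraries, Pearson's r with the mean of Acta2, Tagln and Myl9 ran from -0.37 (Ppp1r14a) to 0.64 (Smtn). It was -0.16 for Tpm1, 0.05 for Cald1, 0.06 for Synm and 0.51 for Tpm2. In hippocampus 7 of the 9 had positive differences, with a median of 0.06, and 0 passed. Smtn, the actin-binding protein smoothelin, had 1.48, 2.03 and 1.47 FPKM in irradiated and 1.07, 1.16 and 1.40 FPKM in control hippocampus. Its groups did not overlap, as in 7.41% of all genes in the higher direction (limma adjusted p = 0.482). Cnn1, calponin of differentiated smooth muscle, was under the filter and is named after its values were seen. It had 0.199, 0.479 and 0.0835 against 0.0569, 0.0562 and 0.0905 FPKM in hippocampus, again with its highest value in irradiated mouse 2. In prefrontal cortex 5 were positive and 4 negative, with 0 passing. Ppp1r14a, an inhibitor of myosin phosphatase, had the smallest p there, with 32.9, 21.5 and 30.0 FPKM in irradiated and 41.0, 47.9 and 37.3 FPKM in control mice (log2 difference -0.58 ± 0.15, limma unadjusted p = 0.00336, adjusted p = 0.436). It was lower without overlap, as were the tropomyosin Tpm2, the myosin light chain kinase Mylk and the caldesmon gene Cald1, which makes 4 of the 9 against 7.44% of all genes. Between the control regions Cald1 (log2 difference 0.74, limma adjusted p = 0.000238) and Synm (0.42, 0.00475) were higher in hippocampus, and Tpm1 (-0.29, 0.00328) and Tpm2 (-0.44, 0.0398) were lower.

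Of 29 genes that signal to mural cells or relay those signals, 24 were tested in hippocampus and 0 passed, 18 with positive differences and a median of 0.03. Pdgfb, the ligand of Pdgfrb, had 10.8, 9.84 and 9.12 FPKM in irradiated and 7.60, 7.88 and 9.36 FPKM in control hippocampus (log2 difference 0.24 ± 0.09, limma adjusted p = 0.475). In prefrontal cortex it had 10.6, 10.5 and 10.1 FPKM against 7.93, 9.12 and 8.29 FPKM (log2 difference 0.27, limma unadjusted p = 0.00658, adjusted p = 0.47). The groups did not overlap there, as in 796 of 12729 genes tested in the higher direction. The angiopoietin receptor Tek had 1.66, 1.78 and 1.61 FPKM against 0.642, 1.27 and 1.34 FPKM in hippocampus, and its relative Tie1 1.41, 1.92 and 1.26 FPKM against 0.688, 0.788 and 1.17 FPKM. Both were without overlap, as in 7.41% of all genes in the higher direction, and did not pass (limma adjusted p = 0.475 each). Between the control regions 7 of the 24 passed, a share near the 30.3% of all genes. Of the 7, 4 were higher in hippocampus, among them Tgfb2, a TGF-beta ligand (log2 difference 2.19, limma adjusted p = 8.89e-07), and the Notch receptor Notch2 (0.85, 0.000162). The 3 lower ones included Hey1, a transcriptional target of Notch (-0.39, limma adjusted p = 0.00588).

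Markers of other cell types differed between some of the same groups, and their part in the results was not tested. The 13 endothelial genes summed to 126.7 to 146.7 FPKM in irradiated and 95.0 to 109 FPKM in control hippocampus, without overlap. Of these, 10 had positive differences, 7 with an unadjusted p under 0.05 and 0 passing, and the median was 0.40. Over all genes tested 47% were positive, and 4.7% were higher with such a p. Pecam1 had 3.77, 4.95 and 4.15 FPKM against 1.69, 2.82 and 2.56 FPKM. In prefrontal cortex the sum was 128.5 to 153.8 FPKM against 108.1 to 122.4 FPKM, with 12 positive and a median of 0.18. Between the control regions 7 of the 13 were lower in hippocampus and 2 higher by limma, with a median of -0.52, where 14.6% of all genes were lower and 15.7% higher.

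The 9 fibroblast genes, which mark cells of the meninges and of large vessels, summed to 86.6 to 140.1 FPKM in irradiated and 113.1 to 117 FPKM in control hippocampus. The lowest sum was that of irradiated mouse 2, where Igf2 had 23.1 FPKM, against 55.9 and 65.3 FPKM in irradiated mice 1 and 3. In hippocampus 6 of 8 tested had positive differences (median 0.34), and in prefrontal cortex 7 of 7 had negative ones (median -0.32), with 0 passing in either. Of the 8, Col1a1 and Slc6a13 were higher in irradiated hippocampus without overlap and 0 were lower, against 7.41% of all genes in the higher direction. The prefrontal sum was 29.3 to 40.7 FPKM in irradiated and 41.9 to 48.0 FPKM in control mice. Of the 8 choroid plexus genes, all had negative differences in hippocampus, and the sum was 3132, 65.2 and 4657 FPKM in irradiated mice 1, 2 and 3 and 5860, 4703 and 3746 FPKM in controls. The library at 65.2 FPKM was the one with the highest Acta2, Tagln, Myh11 and Myl9. In prefrontal cortex that mouse had 4.18 FPKM, and the highest choroid plexus sum was 65.6 FPKM in control 3.

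Markers of red blood cells (4 genes) summed to 49.7 to 85.3 FPKM in irradiated and 41.8 to 43.9 FPKM in control hippocampus, and to 50.7 to 79.3 against 46.5 to 67.7 FPKM in prefrontal cortex. Single globin genes were uneven between libraries, Hba-a2 from 0.013 to 39.7 FPKM and Hbb-bs from 0.003 to 5.70 FPKM, so these sums are a rough measure of blood. The 5 neuronal genes summed to 2242 to 2402 against 2199 to 2371 FPKM in hippocampus and to 2847 to 3071 against 2736 to 2937 FPKM in prefrontal cortex. The 4 astrocyte genes had 354.5 to 409.8 against 395.6 to 419.6 FPKM in hippocampus. The 3 oligodendrocyte genes had 1663 to 1790 against 1864 to 2318 FPKM in hippocampus and 1149 to 1297 against 1370 to 1507 FPKM in prefrontal cortex. No gene of these marker lists was at 0 in all 3 libraries of a group.

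**Figure D4:**
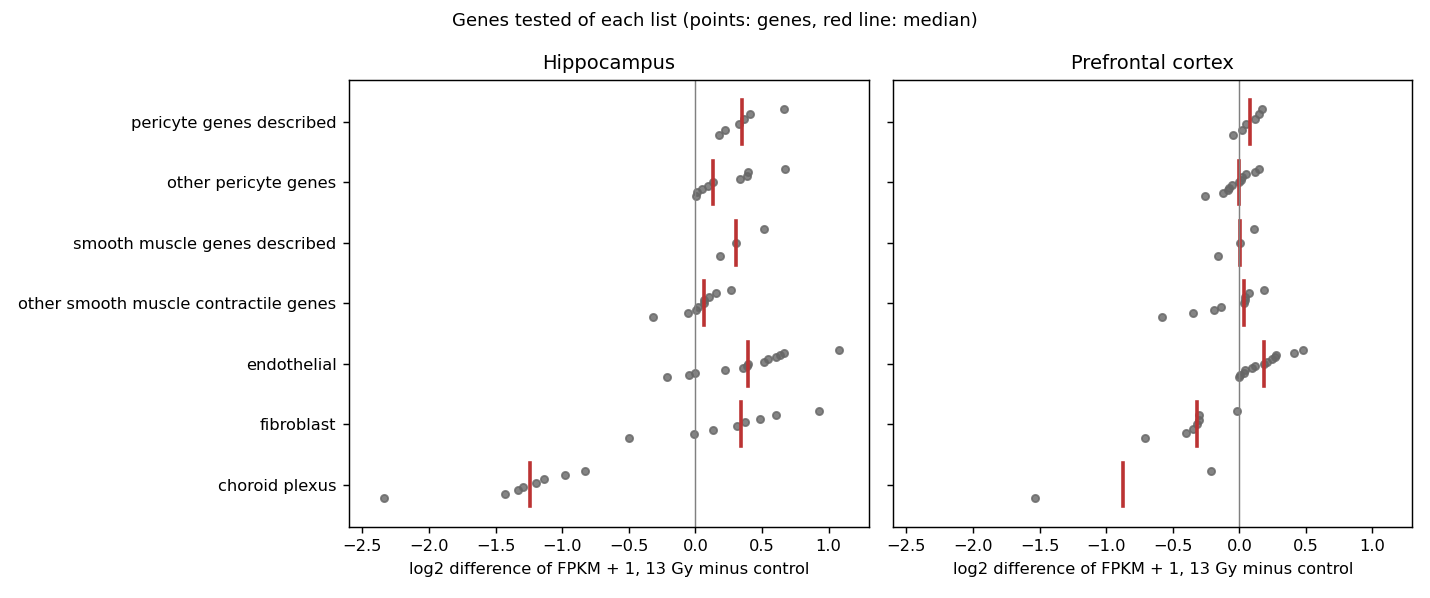
Log2 difference of FPKM + 1 between irradiated and control mice for the tested genes of 7 lists, in hippocampus and prefrontal cortex, with a point per gene and a red line at the median. In hippocampus the medians lie above 0 for endothelial (0.40), pericyte (0.35) and smooth muscle genes described (0.31) and for fibroblast genes (0.34). They do so too for the other pericyte (0.13) and other contractile genes (0.06), and that of the choroid plexus genes (-1.24) lies below.

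Relatives of the mural genes, which brain cells of other types also use, stood at other levels. Actb, the cytoplasmic beta-actin, had 627 ± 42.6 FPKM in irradiated and 656 ± 17.6 FPKM in control hippocampus (SD, n = 3), far above Acta2. Acta1, the skeletal muscle actin, had 3.40 ± 0.377 against 4.21 ± 0.283 FPKM there and 4.80 ± 0.644 against 5.92 ± 0.279 FPKM in prefrontal cortex. In both regions every irradiated value was below every control value. The same held for 1057 of 12947 genes tested in hippocampus and 947 of 12729 (7.44%) in prefrontal cortex. The other muscle actins Actg2 and Actc1 had at most 0.0887 and 0.168 FPKM in any library. Actc1 was listed at 0 in all libraries of control hippocampus and of prefrontal cortex.

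Of the relatives of Tagln, Tagln2 had 5.5, 8.29 and 6.48 FPKM in irradiated and 5.53, 5.13 and 6.46 FPKM in control hippocampus. As for Tagln, its highest value was in irradiated mouse 2, although its groups overlapped. The neuronal relative Tagln3 had 154.5 ± 8.01 against 163.2 ± 5.53 FPKM. Kcnj11 and Abcc8, the neuronal counterparts of Kcnj8 and Abcc9, had 11.2 ± 1.54 and 4.42 ± 0.398 FPKM in the hippocampal and 17.5 ± 3.63 and 5.09 ± 0.825 FPKM in the prefrontal controls. Both stood above Kcnj8 and Abcc9 in each of these libraries. Notch2 had 4.46 ± 0.480 FPKM in the hippocampal and 2.03 ± 0.0676 FPKM in the prefrontal controls, the opposite order to Notch3. Pdgfra, the receptor of oligodendrocyte precursors and fibroblasts, had 9.89 ± 0.741 and 9.26 ± 0.677 FPKM, more than Pdgfrb in both.

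Sharing of reads with other genes was checked for each mural gene. In 50-base windows of the transcripts, 0.7% of the Abcc9, 0.4% of the Myh11, 0.35% of the Acta2 and 0.09% of the Notch3 windows also occurred in another gene, and none of those of the other 6. Tagln (chromosome 9, 45929619 to 45936058, minus strand) shares 108 exon bases with Pcsk7 on the other strand, a gene of 4.06 to 5.69 FPKM, and 1241 exon bases with an antisense gene that has only a predicted-gene name. Notch3 shares 488 exon bases with another such antisense gene, and Abcc9 158 with an antisense gene named only by a clone, which had at most 0.044 FPKM. The sources used here do not say whether the authors' counting used the strand, so the values of Tagln, Notch3 and Abcc9 may hold reads of these partners. The other genes lie at chromosome 11, 78499091 to 78502324 (Vtn), chromosome 17, 32120820 to 32166852 (Notch3), chromosome 6, 142587862 to 142702315 (Abcc9) and 142564837 to 142571614 (Kcnj8), chromosome 18, 61045150 to 61085061 (Pdgfrb), chromosome 1, 169655501 to 169695813 (Rgs5), chromosome 19, 34241090 to 34255590 (Acta2), chromosome 16, 14194535 to 14291372 (Myh11) and chromosome 2, 156775420 to 156781658 (Myl9). All are protein coding, and positions are those of mm10.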

How the data were processed

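Total RNA of hippocampus and prefrontal cortex was extracted with Trizol and sequenced from directional NEBNext Ultra II libraries, per the labels' protocols. TopHat and the build mm10 are named for the alignment, per the submitters' processing notes. The sources used here do not give the counting tool, annotation, strand setting or versions. The authors deposited 1 value per gene symbol and library, taken as FPKM from the values: they are not whole numbers and their totals differ between libraries. Since FPKM scale with the library's total, abundant genes can move all others, and no counts are kept. Depth was therefore estimated from the steps between low values and gives no counting error per gene.

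Groups follow the library titles. Genes with at least 1 FPKM on average over the compared libraries were tested on log2(FPKM + 1) by limma's trend method (version 3.58.1, R 4.3.3), with Benjamini-Hochberg adjustment over all genes tested, a threshold of 0.05 and two-sided tests; a log2 difference on this scale understates the change of low genes. Before use, the fits were tested on simulated data. Pearson correlations, overlaps and lists are descriptions with no test. The 10 genes and the lists were chosen with earlier results of these data known. Genes named beyond these are, per list, up to 4 with the smallest p in the comparison described, close relatives of the 10 genes as levels, and the 5 most like each mean profile.

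Libraries of the same mouse pair the regions by design, with correlations of their deviations from the group means of 0.17, 0.26 and 0.30 in irradiated and 0.29, -0.006 and 0.05 in control mice. Irradiated and control mice with the same number are different animals; in prefrontal cortex their deviations correlated at 0.14, 0.12 and 0.12, and in hippocampus at 0.10, -0.02 and -0.16. Alternatives were a pseudocount of 0.1, no filter, equal library totals, a replicate block, 1 fit over all 12 libraries and leaving out each library. Positions, transcripts and overlaps come from GENCODE M21, which held 22148 of the 23183 symbols (95.54%). The blood list lacks Hbb-bt, whose symbol was not matched.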

Additional observations from a re-analysis of the deposited data

How the results depend on the processing

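No mural gene passed the threshold in any of the fits of the 4 irradiation comparisons, including those with the replicate block. Of 522 alternative fits of single mural genes over all 5 comparisons, 483 (92.5%) kept the direction and the side of the threshold, 14 lost a call, 1 gained one and 24 changed sign. The count of all genes past the threshold in hippocampus went from 0 to 4 with equal library totals, to 1 with 1 fit over 12 libraries and to 0 to 1 with 1 library left out. In prefrontal cortex it went from 1 to 2 with no filter, to 0 with 1 fit over 12 libraries and to 1 to 4 with 1 library left out. For the difference between regions it went from 0 to 1 with no filter and to 0 to 2 with 1 library left out, and for the mean of both regions from 1 to 0 with no filter, to 2 with the replicate block and to 1 to 3 with 1 library left out. Between the control regions the 4 mural genes became 1 to 3, and the 3922 genes 2920 to 3843, with 1 library left out; with the mouse as replicate block the same 4 passed (4326 genes), and with no filter Vtn did not (limma adjusted p = 0.0627). The replicate block changed no other call. The hippocampal pericyte difference of 0.36 came to 0.49 with a pseudocount of 0.1. With 1 library left out it ran from 0.29 to 0.41, the smooth muscle difference from 0.03 to 0.58, and the prefrontal ones from 0.04 to 0.11 and from -0.14 to 0.12.

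Signs changed only among differences that did not pass. In prefrontal cortex Tagln was at -0.0014 with a pseudocount of 0.1 and Pdgfrb at 0.0099 with equal totals. With 1 library left out, the log2 differences ran in hippocampus from -0.030 to 0.59 for Acta2 and from -0.029 to 0.33 for Myl9. In prefrontal cortex they ran from -0.046 to 0.12 for Vtn, -0.028 to 0.092 for Kcnj8, -0.13 to 0.027 for Pdgfrb, -0.11 to 0.26 for Rgs5, -0.12 to 0.31 for Acta2 and -0.13 to 0.17 for Tagln. For the difference between regions Acta2 ran from -0.14 to 0.48. For the mean of both regions it was -0.0071 to 0.13 for Pdgfrb, -0.077 to 0.45 for Acta2, -0.019 to 0.48 for Tagln and -0.088 to 0.095 for Myl9. Between the control regions Rgs5 ran from -0.36 to 0.056. The cause of these changes was not tested. Equal totals moved the median of all genes by 0.08 in hippocampus and 0.07 in prefrontal cortex. With 3 mice per group and no counts, the precision rests on the spread between mice alone.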
